A study of Arabidopsis thaliana with 12 samples.

Results

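The comparison set shoots of the clf mutant of Arabidopsis thaliana against shoots of wild type Col, both on sufficient iron, across all genes of the deposited count table. It used 6 of the 12 libraries of the series, 3 for each genotype, chosen by the genotype and iron treatment in their labels. The other 6 libraries are the same genotypes on iron deficient medium. They enter the filter on low counts, the scaling and the fit of the spread, and they show which differences were found again. Seedlings of both genotypes spent 12 days on B5 and a further 3 days on iron-containing medium, in days of 16 h light and 8 h darkness (22 °C). The sources used here do not give the clf allele, whether plants were pooled, or whether the replicates are separate cultures. The p-values therefore reflect the scatter among these libraries, and that scatter may be technical.

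CURLY LEAF (CLF) is a histone methyltransferase of Polycomb repressive complex 2, which places the repressive mark H3K27me3 on histone H3. In Arabidopsis leaves the complex is known to keep genes of flower development silent, among them AGAMOUS (AG), and clf plants are known for curled leaves and early flowering. SWINGER (SWN) encodes a related methyltransferase that can act in the same complex. The title of the series asks how this mark bears on iron homeostasis genes in shoots.

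Counts per library came to between 16092041 and 20706803 in the 6 libraries. The tissue is a shoot by source name, title and design text, but a root by one characteristic and by the extraction protocol. Leaf markers summed to between 45079 and 52792 CPM (counts relative to the library size, scaled by TMM) and root markers to between 425 and 756 CPM, and 0 of 8 tested leaf and 0 of 9 tested root markers passed edgeR's test between genotypes (with an unadjusted p under 0.05 in 0 and 0, and DESeq2 calling 0 and 0). Replicate 3 of each genotype stood apart from the other 2. The first principal component of the 6 libraries, with 55.0% of the variance, placed wild-type replicate 3 at 86.4 and clf replicate 3 at 25.3, with the other 4 between -44.4 and -6.04. The second, with 26.3%, placed the wild-type libraries between -41.6 and -3.46 and the clf libraries between 15.8 and 42.6. The evening clock gene TOC1 was at 59.6 and 34.9 CPM in the replicates 3 and between 9.90 and 13.01 CPM in the other 4 libraries. Counts of calls are therefore also given without both replicates 3.

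In all, 687 of 19148 tested genes were higher in clf (3.59%) and 253 were lower (1.32%), together 4.91% of those tested. A gene was called at an adjusted p under 0.05 in the quasi-likelihood test of edgeR, with Benjamini-Hochberg adjustment over all tested genes, written below as edgeR adjusted p. Of these, 479 rose and 90 fell by at least 2-fold, and 224 rose and 26 fell by at least 4-fold. The median level of the genes that rose went from 4.98 to 14.02 CPM, and 174 of them (25.3%) had a wild-type mean under 1 CPM. That of the genes that fell went from 41.1 to 21.6 CPM. All tested genes had a median of 11.6 CPM in wild type, and 11.1% of them were under 1 CPM. A set of 23 genes that rose had 0 counts in the 3 wild-type libraries. In 4562 tested genes (23.8%) the values of the genotypes did not overlap, among them all 687 and 253 called genes. An unadjusted p under 0.05 by edgeR was found in 3587 of the 19148 tested genes, and DESeq2 called 1038 higher and 638 lower. Such counts in the gene lists below stand beside these. Of the genes that rose, 116 reached the filter on low counts only through clf libraries, and 11 of the genes that fell reached it only through wild-type libraries. Without both replicates 3 the counts were 400 higher and 155 lower. They were 382 and 121 without replicate 1 and 344 and 101 without replicate 2 of wild type, and 372 and 111 without replicate 1 and 307 and 79 without replicate 2 of clf. Higher genes made up 73.1% of calls with TMM scaling, 88.0% with library totals alone, which shifted the median change over all genes from -0.01 to 0.12 (log2), and 87.6% with limma on the deposited FPKM, where that median was 0.09.

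**Figure D1:**
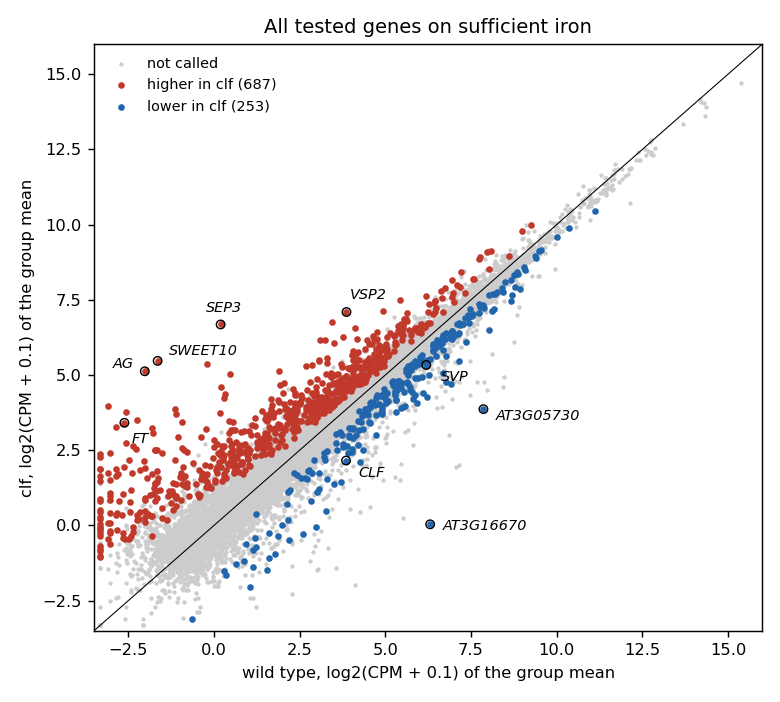
Mean level of each tested gene in wild type (x axis) and clf (y axis) on sufficient iron, as log2(CPM + 0.1), 3 libraries a genotype. Each point is a gene, with the 687 called higher in red, the 253 called lower in blue and genes not called in grey. Many red points lie at the left edge, where wild-type levels are lowest, and the blue points lie mainly at middle and high levels.

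CLF itself fell in clf (log2 fold change -1.72 with an SE of 0.22, edgeR adjusted p 0.0024), which checks the genotype labels. The count table still held CLF reads in all 3 clf libraries, between 3.09 and 5.35 CPM. CLF overlaps neighbouring genes on the opposite strand, and the strand setting of the counting is not given in the sources used here. Of 28 tested genes of Polycomb and trithorax proteins, 1 rose and CLF alone fell, beside 3.59% and 1.32% of all tested genes. The gene that rose was MEA, which encodes another methyltransferase of the complex, known from the seed. MEA had 0, 0.0677 and 0 CPM in wild type and 0.984, 2.68 and 2.31 CPM in clf, that is 1 count against 109. The ratio of the levels was 93.6 (exact 95% interval 16.5 to 3732, for counting error only). MEA reached the filter only through clf libraries, and without both replicates 3 it did not pass (edgeR adjusted p 0.056). SWN did not pass (log2 fold change 0.18, edgeR adjusted p 0.46). Other core genes of the complex did not pass either: EMF2 had a log2 fold change of -0.07, VRN2 of 0.34, FIE of -0.26 and MSI1 of -0.01. LHP1, for a protein that binds the mark, was at -0.18, and the H3K27 demethylase genes REF6 and ELF6 were at -0.02 and -0.03.

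Genes of floral MADS-box transcription factors, which set the identity of flower organs, were higher in clf. Of the 20 listed, 14 passed the filter on low counts, 11 of these rose and 0 fell, against 3.59% of all tested genes called higher. The median log2 fold change of the 14 was 3.18 (also with STK at its lower bound), against -0.01 for all tested genes. Since 8 of the 11 reached the filter only through clf libraries, these figures describe the list and support nothing further. Levels of the 20 genes summed to between 23.5 and 24.6 CPM in the wild-type libraries and to between 179 and 197 CPM in clf. In bulk tissue, more cells that express a gene and more RNA per cell cannot be told apart.

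SEP3, which joins the other factors into complexes, was the most abundant. It was at 0.718, 0.947 and 1.47 CPM in wild type and at 96.0, 97.2 and 114 CPM in clf (log2 fold change 6.62 with an SE of 0.23, edgeR adjusted p 3.2e-07). AG, which specifies stamens and carpels, was at 0.166, 0.135 and 0.140 CPM in wild type and at 30.8, 37.9 and 35.7 CPM in clf (log2 fold change 7.82 with an SE of 0.51, edgeR adjusted p 3.4e-05). Every clf library was far above every wild-type library for both. Per length, SEP3 in clf, at a mean of 93.5 FPKM (counts scaled to gene length and library total), lay above 94.6% of tested genes, and AG, at 21.5 FPKM, above 76.2%. SEP4 followed at 16.0 FPKM. PI, a petal and stamen factor, was at 1.44, 1.01 and 0.909 CPM in wild type and 3.94, 5.53 and 5.50 CPM in clf (log2 fold change 2.14 with an SE of 0.26, edgeR adjusted p 0.0017). Its partner AP3 had 1 count in wild type against 149 in clf, at 2.46, 3.79 and 2.01 CPM, a ratio of 128 (exact 95% interval 22.6 to 5089). SHP2, a fruit factor close to AG in sequence, had 2 counts against 196, a ratio of 84.2 (exact 95% interval 23.0 to 700). STK, an ovule factor, had 0 counts in wild type and 0.711, 1.34 and 1.70 CPM in clf, at least 19.8-fold higher with 3 counts over the wild-type group as the floor.

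AGL17, a member of another MADS-box clade, rose from 0.175 ± 0.0914 to 1.92 ± 0.350 CPM (mean ± SD, n = 3; log2 fold change 3.44, edgeR adjusted p 0.0053). FUL, a factor of fruit and flowering, rose from 0.815 ± 0.284 to 3.87 ± 1.81 CPM. SEP4 was the member best expressed in wild type and rose least. It was at 9.89, 10.7 and 8.60 CPM in wild type and 25.6, 24.1 and 15.4 CPM in clf (log2 fold change 1.16, edgeR adjusted p 0.027). SHP1 and SEP1 rose from under 0.2 CPM on average to 0.689 ± 0.0714 and 1.79 ± 1.13 CPM. SHP1, SEP1, SHP2 and STK overlap genes on the opposite strand, so reads of either strand cannot be told apart in them. AGL15, AGL16 and AGL18, which are also known outside flowers, did not pass (log2 fold changes 0.05, 0.06 and -0.17), and their genotypes overlapped. AP1, CAL, AGL6, AGL13, AGL21 and SEP2 did not reach the filter, and AP1, an early marker of flower primordia, was at most at 0.408 CPM. Markers of anthers and carpels, 9 genes of which 1 was tested and 0 passed by edgeR (1 had an unadjusted p under 0.05 and DESeq2 called 0), summed to between 2.23 and 2.38 CPM in wild type and between 2.40 and 4.63 CPM in clf. Their part in the result was not tested. Without both replicates 3, 9 of the 11 kept their call, with FUL (edgeR adjusted p 0.072) and SEP1 (0.14) lost, with the replicate number as a block 7 did, with STK (0.091), SHP1 (0.097), SEP1 (0.080) and SEP4 (0.056) lost, and with the 6 sufficient-iron libraries alone 7 did, with SHP1 (0.11), FUL (0.057), SEP1 (0.052) and SEP4 (0.051) lost. With single libraries left out in turn at least 7 kept it. The call ended without any 1 of 7 libraries for SHP1 and for SEP1, of 5 for SEP4 and of 4 for FUL, and the highest edgeR adjusted p were 0.12 for SHP1 without replicate 1 of wild type and 0.12, 0.11 and 0.074 for SEP1, SEP4 and FUL without replicate 2 of clf.

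**Figure D2:**
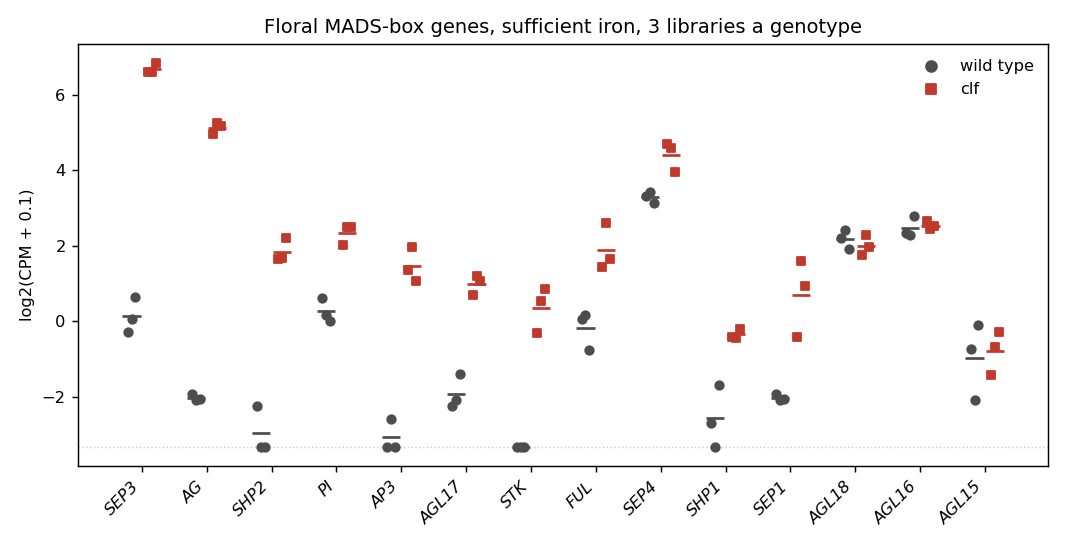
Level of the 14 tested floral MADS-box genes in each library on sufficient iron, as log2(CPM + 0.1), with grey circles for the 3 wild-type and red squares for the 3 clf libraries and bars at the mean of the plotted values. The dotted line is a level of 0. The red squares lie above all grey circles in the first 11 genes, and the last 3, AGL18, AGL16 and AGL15, overlap.

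Sequences of these genes were searched for the telobox, AAACCCTA on either strand, a short element bound by plant factors that are known to recruit Polycomb repressive complex 2. Of the 14 tested floral MADS-box genes 12 held a telobox within 2000 bases after the gene start (85.7%) and 13 held one anywhere in the gene, at 0.438 matches per kilobase. Genes that were not called, AGL16 and AGL18, held teloboxes too. The 11 that rose all held one within the 2000 bases, against 24.6% of all genes that rose, 24.2% of those that fell and 30.3% of all tested genes. The 11 held 18 matches in all (12 in introns, 4 in UTRs and 2 in coding exons), or 0.455 per kilobase of gene against 0.142 for all tested genes. The genes were longer (median 3836 against 2432 bases) and many are related in sequence, so they are not independent cases. The 11 were picked by their call from a list chosen with earlier results known, and 8 of them reached the filter only through clf libraries. These shares therefore describe the list, and a link between teloboxes and the changes was not tested. A match is a run of letters and not a shown binding site. The match nearest the start of each gene is given with its surroundings, 5′ to 3′ on the gene's strand, with the telobox in capitals (TAGGGTTT where it lies on the other strand), from the RefSeq TAIR10.1 genome:
AG, intron 2, chr4:10384202-10384231 (+): aaagtccgattTAGGGTTTtatgtttatgt
SEP3, intron 1, chr1:8594972-8595001 (-): gattttgttgtAAACCCTAggaaacagtta
SHP2, intron 2, chr2:17820972-17821001 (+): atccccaaaatTAGGGTTTgtttaaaacta
SHP1, intron 2, chr3:21739466-21739495 (+): agagccaagatTAGGGTTTggttaatttag
STK, coding exon 2, chr4:6240894-6240923 (-): agtgagaagctTAGGGTTTttgaagagaaa
PI, UTR, chr5:6829156-6829185 (+): aatttcatagcAAACCCTAaaattgagaaa
AP3, coding exon 1, chr3:20120947-20120976 (-): ttgtgtgatgcTAGGGTTTcgattatcatg
SEP1, UTR, chr5:5154149-5154178 (-): gaaaacacaccAAACCCTAacctcaccctc
SEP4, intron 1, chr2:1129862-1129891 (+): ttgatccatgtTAGGGTTTtgattcttaag
FUL, intron 1, chr5:24505608-24505637 (-): gctcgagaaatTAGGGTTTttttttgggat
AGL17, UTR, chr2:9618308-9618337 (+): aagatctagaaAAACCCTAgaacgcaccaa
In AG, SHP1 and SHP2, which are close relatives, the match shown lies in intron 2, and the letters around the telobox differ between the genes. In STK the match shown lies in coding exon 2, and a further match lies in intron 2.

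Genes that time flowering moved in both directions. Of 24 tested, 8 rose and 3 fell (median log2 fold change 0.20), against 3.59% higher and 1.32% lower among all tested genes, and 2 of the 8 reached the filter only through clf libraries. FT, the mobile signal that starts flowering, had 3 counts in wild type against 579 in clf, where it was at 11.3, 10.02 and 10.3 CPM, a ratio of 166 (exact 95% interval 56.4 to 806). The repressor FLC was at 3.32, 2.37 and 3.92 CPM in wild type and 12.2, 11.9 and 14.6 CPM in clf (log2 fold change 2.01 with an SE of 0.35, edgeR adjusted p 0.0090). FLC overlaps an antisense gene, so the strand of these reads cannot be told apart. An activator and a repressor of flowering thus both rose. SOC1, an activator that FLC represses, was at 20.4, 21.4 and 17.9 CPM in wild type and 32.5, 37.7 and 32.2 CPM in clf (log2 fold change 0.78, edgeR adjusted p 0.013). The related genes AGL24 (log2 fold change 0.98) and AGL42 (4.17) rose too.

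SPL4, SPL5 and SPL9, activators of the change to the adult phase and to flowering, rose by 2.42, 3.61 and 1.41 on the log2 scale, SPL5 from 0.387, 0.541 and 0.140 to 5.47, 4.13 and 3.70 CPM. All 3 SPL genes overlap genes on the opposite strand. The 3 genes that fell encode repressors of flowering. SVP was at 79.4, 75.9 and 63.8 CPM in wild type and 41.3, 39.3 and 40 CPM in clf (log2 fold change -0.86 with an SE of 0.12, edgeR adjusted p 0.0035). SNZ went from 8.23 ± 0.960 to 2.19 ± 0.253 CPM (log2 fold change -1.91, edgeR adjusted p 6.3e-04) and MAF5 from 5.22 ± 0.706 to 3.08 ± 0.352 CPM (edgeR adjusted p 0.024). The FLC relatives MAF1, MAF2, MAF3 and MAF4 did not pass (log2 fold changes 0.13, 0.14, -0.09 and 0.59), nor did CO, the day-length sensor gene upstream of FT (0.26), FD (-0.11), TEM1 (-0.33) or TEM2 (-0.70). The edgeR adjusted p of AGL19 was 0.052 (0.553, 0.0677 and 0 against 2.02, 1.75 and 1.90 CPM). LFY, TSF and TFL1 did not reach the filter. Without both replicates 3, SOC1 (edgeR adjusted p 0.067), SPL5 (0.052) and MAF5 (0.15) lost their call, and MAF5 (0.10) lost it with the replicate block. The call of AGL24 ended without any 1 of 9 libraries, with the highest value without replicate 2 of clf (0.15), that of MAF5 without any 1 of 5, with the highest without replicate 1 of clf (0.082), and that of SOC1 without replicate 2 of clf (0.065). With the 6 sufficient-iron libraries alone, AGL24 (0.13), SPL9 (0.065) and MAF5 (0.12) were not called.

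Homeodomain-leucine zipper genes, for transcription factors found in plants, held some of the largest increases. Of 27 tested, 5 rose and 1 fell (median log2 fold change 0.28; 3.59% and 1.32% of all tested genes), and 2 of the 5 reached the filter only through clf libraries. ATHB40 had 1 count in wild type against 867 in clf, at 14.5, 15.4 and 17.3 CPM, a ratio of 745 (exact 95% interval 133 to 29449). Its relative ATHB21, known with it from dormant axillary buds, was at 0.276, 0.203 and 0.0699 CPM in wild type and 7.82, 11.8 and 8.43 CPM in clf (log2 fold change 5.59 with an SE of 0.36, edgeR adjusted p 3.4e-05). ATHB53, the third gene of that trio, was at 0.387, 0.0677 and 0.140 CPM against 0.547, 0.408 and 1.39 CPM and did not pass (edgeR adjusted p 0.30).

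ATHB54 was at 0.939, 1.01 and 0.350 CPM in wild type and 43.5, 53.2 and 27.2 CPM in clf (log2 fold change 5.72 with an SE of 0.46, edgeR adjusted p 1.4e-04). Among the class II genes, which act in shade and auxin responses, HAT2 rose (22.3, 23.1 and 9.86 against 48.5, 59.0 and 53.6 CPM; log2 fold change 1.54) and HAT3 fell (22.8, 23.7 and 21.9 against 8.58, 10.8 and 12.96 CPM; log2 fold change -1.08 with an SE of 0.16, edgeR adjusted p 0.0047). HAT9 rose by 1.58 on the log2 scale, but not with the replicate block (edgeR adjusted p 0.0545), without both replicates 3 (0.093) or without any 1 of 4 libraries (highest without replicate 2 of clf, 0.091). HAT2 was not called with the 6 sufficient-iron libraries alone (0.059), where ATHB7 was (0.034, against 0.074). With the replicate block ATHB5 was called lower (0.023, against 0.15), at 49.3, 43.2 and 80.0 CPM in wild type and 24.3, 27.3 and 40.3 CPM in clf. The class III genes PHB, PHV, REV, ATHB8 and ATHB15, which pattern leaves and vessels, had log2 fold changes between -0.28 and 0.41 and did not pass. Among KNOX and other meristem genes, which leaves keep silent, 0 of 5 tested passed by edgeR (unadjusted p under 0.05 in 1, DESeq2 calls 0). STM was at 0.939, 1.35 and 0.629 CPM in wild type and 1.42, 1.86 and 1.95 CPM in clf (log2 fold change 0.84, edgeR adjusted p 0.55), and KNAT1 had a log2 fold change of 0.66. WUS and CLV3 had 0 counts in all 6 libraries.

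SWEET10, for a sugar exporter, was at 0.111, 0.271 and 0.280 CPM in wild type and 36.3, 43.0 and 53.3 CPM in clf (log2 fold change 7.66 with an SE of 0.49, edgeR adjusted p 3.4e-05). Its neighbour on chromosome 5, SWEET13, was at 0.497, 0.677 and 0.210 against 2.19, 2.45 and 0.823 CPM (edgeR adjusted p 0.060, not called). Of the 10 tested SWEET genes 2 rose and 0 fell, against 3.59% and 1.32% of all tested genes, and 1 of the 2 reached the filter only through clf libraries. Besides SWEET10, SWEET1 rose (10.6, 13.5 and 8.67 against 23.1, 32.9 and 21.7 CPM, log2 fold change 1.25). SWEET1 overlaps a gene on the opposite strand. Without both replicates 3 SWEET1 did not pass (edgeR adjusted p 0.079), nor without any 1 of 4 libraries (highest without replicate 2 of clf, 0.10). SWEET11 and SWEET12, which export sucrose for phloem loading, did not pass (log2 fold changes 0.18 and 0.88). The 250 bases before the start of AG and of SWEET10 both hold a GA repeat, GAGAGAGA on either strand, letters that GAGA-binding plant factors are known for. These upstream sequences are given on the gene's strand with the repeat in capitals (read as CTCTCTCT), from RefSeq TAIR10.1:
AG, chr4:10382606-10382855 (+): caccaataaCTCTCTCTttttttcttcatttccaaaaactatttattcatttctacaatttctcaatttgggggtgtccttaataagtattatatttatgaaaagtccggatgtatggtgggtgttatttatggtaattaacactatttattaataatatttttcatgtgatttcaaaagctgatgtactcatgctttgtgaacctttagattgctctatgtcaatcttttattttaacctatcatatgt
SWEET10, chr5:20658002-20658251 (-): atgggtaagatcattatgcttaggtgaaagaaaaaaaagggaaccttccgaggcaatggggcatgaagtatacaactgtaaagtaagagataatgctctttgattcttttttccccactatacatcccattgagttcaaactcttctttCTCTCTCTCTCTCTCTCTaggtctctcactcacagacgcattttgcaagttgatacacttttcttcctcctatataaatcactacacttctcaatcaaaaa
Among all genes that rose, 3.64% held a GA repeat in these 250 bases, and among all tested genes 4.53% did. The shares with a telobox there were 3.06% and 3.62%. The pair is shown because, of the 12 largest increases, these 2 alone hold the repeat there. It does not stand for the genes that rose.

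The 12 largest increases among genes of at least 5 CPM in clf, with no overlap of the genotypes, were AT5G60140, ATHB40, AG, SWEET10, SCPL43, AO4, LTP4, FT, AT1G03710, SEP3, AT5G22430 and AT5G39220. AT5G60140, annotated as a B3-type transcription factor, had 0 counts in wild type and 6.23, 4.13 and 4.83 CPM in clf, at least 79.9-fold higher. SCPL43, a serine carboxypeptidase-like gene, had 2 counts against 524, a ratio of 225 (exact 95% interval 62.0 to 1863). AO4, an aldehyde oxidase gene, had 1 count against 284, a ratio of 244 (exact 95% interval 43.4 to 9669). LTP4, a lipid transfer protein gene, had 3 counts against 735 and spread widely in clf, with 21.1, 11.5 and 7.81 CPM. LTP4 did not pass without both replicates 3 (edgeR adjusted p 0.098) or without any 1 of 5 libraries (highest without replicate 1 of wild type, 0.10). The cystatin-like gene AT1G03710 (log2 fold change 6.63) and the hydrolase gene AT5G39220 (6.06) rose from means under 0.2 CPM to 11.2 ± 0.470 and 6.09 ± 0.455 CPM, and the Ole e 1 family gene AT5G22430 had 3 counts against 362.

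The largest decrease was that of AT3G16670, annotated in the pollen Ole e 1 allergen and extensin family, a group of secreted proteins. It was at 59.3, 69.5 and 108 CPM in wild type and 0.383, 0.291 and 2.11 CPM in clf (log2 fold change -6.38 with an SE of 0.91, edgeR adjusted p 0.0035). Its neighbour AT3G16660, of the same family, fell as well, from 107, 139 and 118 to 20.8, 17.5 and 38.7 CPM (log2 fold change -2.24 with an SE of 0.32, edgeR adjusted p 0.0035). Both genes lie on the forward strand of chromosome 3 in TAIR10.1, AT3G16660 at 5676749 to 5678099 and AT3G16670 at 5681380 to 5682362. AT3G05730, a defensin-like gene, was at 203, 204 and 290 CPM in wild type and 9.46, 12.1 and 21.9 CPM in clf (log2 fold change -4.00 with an SE of 0.36, edgeR adjusted p 2.6e-04). This gene overlaps AT3G01735 on the opposite strand. The neighbours AT5G34790 and AT5G34800, both annotated as pseudogenes, fell by 3.14 and 3.02 on the log2 scale.

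CRK12, a receptor-like kinase gene, was at 7.24, 10.5 and 10.8 CPM in wild type and 1.64, 0.990 and 1.29 CPM in clf (log2 fold change -2.86 with an SE of 0.34, edgeR adjusted p 0.0015). MSRB6, for a methionine sulfoxide reductase that repairs oxidised proteins, was at 110, 113 and 102 CPM in wild type and 22.5, 33.4 and 26.5 CPM in clf (log2 fold change -1.98 with an SE of 0.16, edgeR adjusted p 1.4e-04). The other genes among the 12 largest decreases had at least 5 CPM in wild type and no overlap of the genotypes: the chitinase gene AT2G43590 (log2 fold change -2.33), AT5G02540 (-2.18), AT1G75490 (-2.17), AT2G47485 (-2.06) and AT3G20370 (-1.97). AT2G43590 did not pass with the replicate block (edgeR adjusted p 0.058), without both replicates 3 (0.063) or without either of 2 libraries (highest without replicate 1 of clf, 0.083). AT1G75490 did not pass without both replicates 3 (0.066), nor AT5G02540 without replicate 1 of clf (0.056). With the 6 sufficient-iron libraries alone neither AT2G43590 (0.0997) nor AT5G02540 (0.055) was called.

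**Figure D3:**
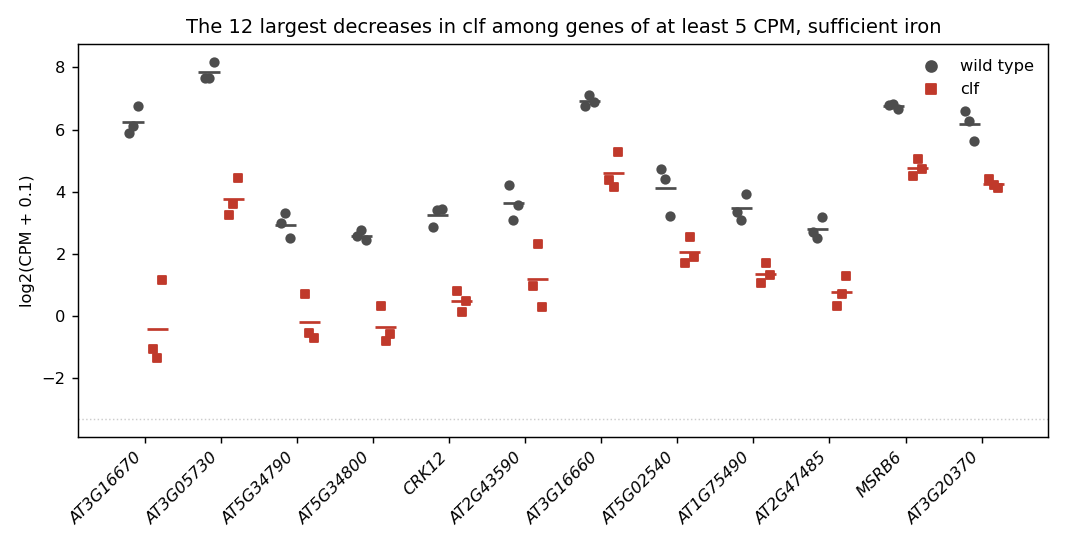
Level of the 12 genes of largest decrease in each library on sufficient iron, as log2(CPM + 0.1), with grey circles for wild type and red squares for clf and bars at the mean of the plotted values. The dotted line is a level of 0. All red squares lie below all grey circles of the same gene, and AT3G16670 has the widest gap.

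Over the 4 lists of iron homeostasis, 5 of 61 tested genes rose on sufficient iron (8.2%, against 3.59% of all tested genes) and 0 fell, and all 5 were genes of iron transport. Of 18 tested genes of iron signalling 0 passed by edgeR, with 2 having an unadjusted p under 0.05 and 0 called by DESeq2. The same held for 0 of 12 genes of iron acquisition (2 and 0) and 0 of 10 of iron storage and iron-containing proteins (1 and 0). The bHLH factor genes that drive the deficiency response were at very low levels in both genotypes: bHLH38 was at 0.162 ± 0.225 CPM in wild type and 0.234 ± 0.108 CPM in clf, and bHLH39 at 0.299 ± 0.0441 and 0.373 ± 0.337 CPM. Their relative bHLH100 was at 0.0553, 0.0677 and 0 CPM against 0.437, 0.233 and 0.0514 CPM (edgeR adjusted p 0.15), and it passed without replicate 3 of clf (0.038). AT2G30766 (edgeR adjusted p 0.65) passed without replicate 2 of wild type. The gene bHLH115 (0.17) passed when the libraries standing apart had a term of their own. BTS, for the ubiquitin ligase that limits the response, was at 102 ± 4.03 and 99.1 ± 18.6 CPM. The iron superoxide dismutase gene FSD1 was at 887 ± 9.95 and 885 ± 76.8 CPM, and the ferritin gene FER1 at 62.9, 61.1 and 143 CPM against 72.5, 105 and 36.1 CPM.

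Of 21 genes of iron transport, 5 rose and 0 fell (median log2 fold change 0.21), where 3.59% of all tested genes rose and 1.32% fell. NRAMP1, a plasma membrane metal transporter, was at 21.1, 17.5 and 14.2 CPM in wild type and 43.3, 41.2 and 32.4 CPM in clf (log2 fold change 1.15 with an SE of 0.17, edgeR adjusted p 0.0045). NRAMP3, which exports iron from the vacuole, was at 11.6, 9.95 and 12.6 CPM in wild type and 17.8, 19.04 and 18.5 CPM in clf (log2 fold change 0.70 with an SE of 0.12, edgeR adjusted p 0.0097). FRO7, for the ferric reductase of chloroplasts, was at 58.6, 52.5 and 37.6 CPM in wild type and 143, 153 and 103 CPM in clf (log2 fold change 1.42, edgeR adjusted p 0.014). The genotypes did not overlap in any of the 3, which held for all 687 genes that rose and for 23.8% of all tested genes. NRAMP1 overlaps a gene on the opposite strand. YSL1, a transporter of iron bound to nicotianamine (14.5, 12.3 and 10.9 against 30.9, 31.5 and 22.7 CPM), and NAS1, a nicotianamine synthase gene (17.7, 14.9 and 10.6 against 36.9, 34.2 and 21.9 CPM), rose by 1.17 and 1.103 on the log2 scale. Neither passed without both replicates 3 (edgeR adjusted p 0.095 and 0.052), which left 3 of the 5, and YSL1 did not with the replicate block (0.068). Calls ended without any 1 of 6 libraries for YSL1 (highest without replicate 2 of clf, 0.13), of 3 for FRO7 (highest without replicate 2 of clf, 0.062) and of 8 for NAS1 (highest without replicate 1 of clf, 0.15). In the fit of the 6 sufficient-iron libraries alone, NRAMP3 (edgeR adjusted p 0.055) and NAS1 (0.091) were not called. NRAMP4, OPT3, YSL3, FRO3 and FRO6 did not pass (log2 fold changes 0.21, 0.31, 0.01, -0.15 and 0.75). The ferric reductase gene FRO1, which is outside the iron lists (chosen after its values were seen), was also called higher (log2 fold change 3.25). How its call fared in the other settings is not given here. NRAMP1 and NRAMP3 had log2 fold changes of 1.16 and 0.92 on deficient iron and passed there too.

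**Figure D4:**
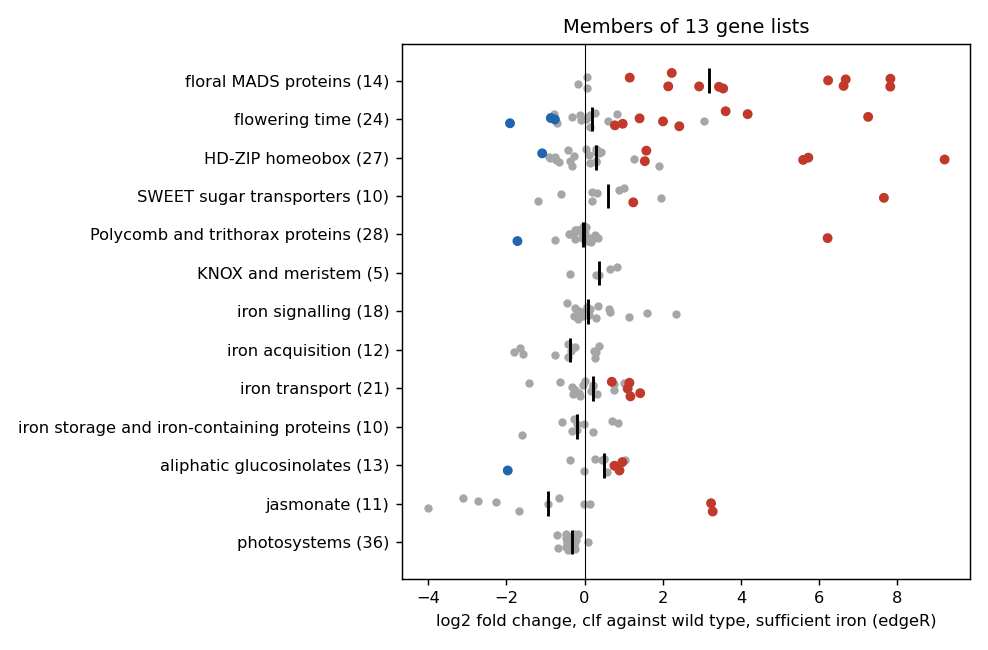
Log2 fold change in clf against wild type on sufficient iron (x axis, edgeR) for the tested members of 13 gene lists, with the number tested in brackets. Red and blue points are genes called higher and lower, grey points were not called, and black bars are list medians. Red points lie far to the right in the floral MADS, flowering time, HD-ZIP and SWEET lists, and 35 of the 36 photosystem genes lie left of 0 with none called.

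The vegetative storage protein genes VSP1 and VSP2, known to respond to jasmonate, rose. VSP2 was at 12.7, 15.5 and 15.2 CPM in wild type and 106, 149 and 154 CPM in clf (log2 fold change 3.24 with an SE of 0.16, edgeR adjusted p 5.0e-06). VSP1, its neighbour and close copy, with which it may share reads, was at 3.59, 3.45 and 3.78 CPM against 27.3, 40.9 and 36.9 CPM. Of 11 tested jasmonate genes, 3 had a positive log2 fold change and 6 an unadjusted p under 0.05 by edgeR. DESeq2 called 2 of the 11 higher and 2 lower. The 9 other than VSP1 and VSP2 did not pass by edgeR. By edgeR 2 of 11 thus rose and 0 fell, against 3.59% and 1.32% of all tested genes. Several of the 9 were high in replicate 3 of wild type: OPR3, of jasmonate synthesis, was at 19.2, 23.5 and 667 CPM in wild type and 16.0, 14.5 and 51.2 CPM in clf, and the response gene JAZ10 was at 0.884, 1.42 and 67.6 against 0.984, 0.466 and 2.83 CPM (both chosen after their values were seen). The part of that library in the list's median of -0.93 was not tested. PBS3, for an enzyme of salicylic acid synthesis, was at 2.32, 3.52 and 2.59 CPM in wild type and 11.8, 11.6 and 9.77 CPM in clf (log2 fold change 1.98 with an SE of 0.28, edgeR adjusted p 0.0035). PBS3 was the 1 member called among 14 tested genes of defence, where 3.59% of all tested genes rose.

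Of 13 genes of aliphatic glucosinolate synthesis, which makes mustard oil precursors, 3 rose and 1 fell, beside 3.59% and 1.32% of all tested genes. CYP79F1, for the first committed step, was at 54.8, 37.9 and 36.4 CPM in wild type and 88.0, 76.5 and 87.8 CPM in clf (log2 fold change 0.97 with an SE of 0.16, edgeR adjusted p 0.0077). CYP79F1 has a close neighbouring copy, CYP79F2, that may share reads. CYP83A1, for the next enzyme, was at 162, 141 and 105 CPM against 271, 266 and 223 CPM (log2 fold change 0.89 with an SE of 0.15, edgeR adjusted p 0.0079). SOT18, a sulfotransferase gene, rose by 0.77 and MAM3, which elongates methionine side chains, fell by 1.96 on the log2 scale. Without both replicates 3, CYP79F1 (edgeR adjusted p 0.053) and MAM3 (0.14) did not pass, SOT18 did not with the replicate block (0.064), and without any 1 of 4 libraries SOT18 (highest 0.11) and of 5 MAM3 (highest 0.12) did not, both highest without replicate 2 of clf. In the fit of the 6 sufficient-iron libraries alone, CYP83A1 (0.055) and SOT18 (0.056) were not called, which left 1 of the 3. With the replicate block CYP79F2 was called higher (0.048, against 0.053).

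Photosystem genes had small negative log2 fold changes almost throughout. Of 36, 35 had a negative log2 fold change (median -0.33) and the genotypes did not overlap in 20 (23.8% of all tested genes did not), but 0 passed by edgeR (unadjusted p under 0.05 in 17). DESeq2 called 10 of them lower, and 22 were lower when the libraries standing apart had a term of their own. Over all 19148 tested genes, 9230 had a positive log2 fold change and 3587 an unadjusted p under 0.05 by edgeR. Of these 19148, DESeq2 called 638 lower, and 1099 were lower with that term. LHCB1.1, a light-harvesting gene with close copies that may share reads (chosen after its values were seen), was at 20907 ± 1325 CPM in wild type and 15244 ± 1117 CPM in clf (log2 fold change -0.46, edgeR adjusted p 0.065). Among phloem markers 1 of 5 fell, beside 1.32% of all tested genes. It was SEOR1 of the sieve elements (log2 fold change -0.83, edgeR adjusted p 0.040). The list summed to between 120 and 174 CPM in wild type and between 152 and 173 CPM in clf. SEOR1 did not pass with the replicate block (0.12), without both replicates 3 (0.17) or without any 1 of 9 libraries (highest without replicate 1 of wild type, 0.12). By edgeR 0 members passed among 8 tested genes of leaf polarity (unadjusted p under 0.05 in 2, DESeq2 calls 0), 8 of proline metabolism (2 and 1), 13 of carbon starvation (2 and 2), 10 of anthocyanin and flavonoids (4 and 2), 23 of the circadian clock (3 and 2), 8 of guard cells (1 and 1), 5 of xylem (0 and 0) and 3 of seed maturation (0 and 0). Among these, the flavonoid gene UF3GT was called higher (edgeR adjusted p 0.035, against 0.17) and the clock gene CHE lower (0.029, against 0.054) with the replicate block. Without both replicates 3, CHE (0.017) and the guard cell gene KAT1 (0.036, against 0.056) were called lower. The 10 tested genes of anthocyanin and flavonoids, though not called, had a median log2 fold change of 1.28, with 9 positive. On deficient iron that median was -1.07.

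The comparison on deficient iron used 6 other libraries. The filter on low counts, the scaling and the estimate of the spread were set over all 12 libraries together. Of the 687 genes that rose on sufficient iron, 116 reached that filter only through clf libraries, counted over both iron levels. On deficient iron 768 genes were higher (4.01%) and 471 lower (2.46%) in clf, together 6.47%. Of the genes that rose on sufficient iron 384 also rose there, which is 55.9% of the first list and 50% of the second. Of those that fell 130 also fell, 51.4% and 27.6% of the lists. None of the 940 passed in the opposite direction, and 661 of the 687 and 233 of the 253 had the same sign, as did 66.7% of all tested genes. The 12 largest increases passed on deficient iron as well with the exception of LTP4 (log2 fold change 1.29, edgeR adjusted p 0.54). On deficient iron LTP4 was at 9.83, 0.369 and 0.344 CPM in wild type and 7.37, 14.2 and 4.33 CPM in clf, so 1 wild-type library was high. For LTP4 the edgeR test of the difference between iron levels did not pass (adjusted p 0.54). In the floral MADS list 9 of the 14 rose there. AG was at 0.246 and 40.2 CPM on average in wild type and clf on deficient iron, SEP3 at 0.973 and 98.4, SWEET10 at 0.245 and 28.8, and FT at 0.0894 and 11.8 CPM.

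Of the 12 largest decreases 10 passed on deficient iron too, among them AT3G16670 (log2 fold change -5.06), AT3G05730 (-3.76) and MSRB6 (-2.10). AT1G75490 (0.17) and AT2G47485 (-0.99) did not. SVP, HAT2 and FRO7 passed on sufficient iron and not on deficient iron (edgeR adjusted p 0.064, 0.13 and 0.064), but the test of the difference passed for none of them (edgeR adjusted p 0.64, 0.69 and 0.85). That test, of the clf effect on deficient minus that on sufficient iron, passed for 1 gene of 19148 (0.00522%), with 1416 at an unadjusted p under 0.05 and 97 called by DESeq2. The gene was ERD5, for proline dehydrogenase, which starts proline breakdown. On sufficient iron it did not differ between genotypes beyond the spread, at 278, 352 and 322 CPM in wild type and 274, 300 and 354 CPM in clf (log2 fold change -0.04, edgeR adjusted p 0.92). On deficient iron it was at 63.0 CPM in wild type and 322 CPM in clf on average (log2 fold change 2.35, edgeR adjusted p 1.8e-05), and the difference of the effects was 2.39 (edgeR adjusted p 0.0036). The next 4 genes by this test, AT1G80440, AT3G48390, GRP3S and AT1G67750, did not pass (edgeR adjusted p 0.085, 0.092, 0.096 and 0.16).

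**Figure D5:**
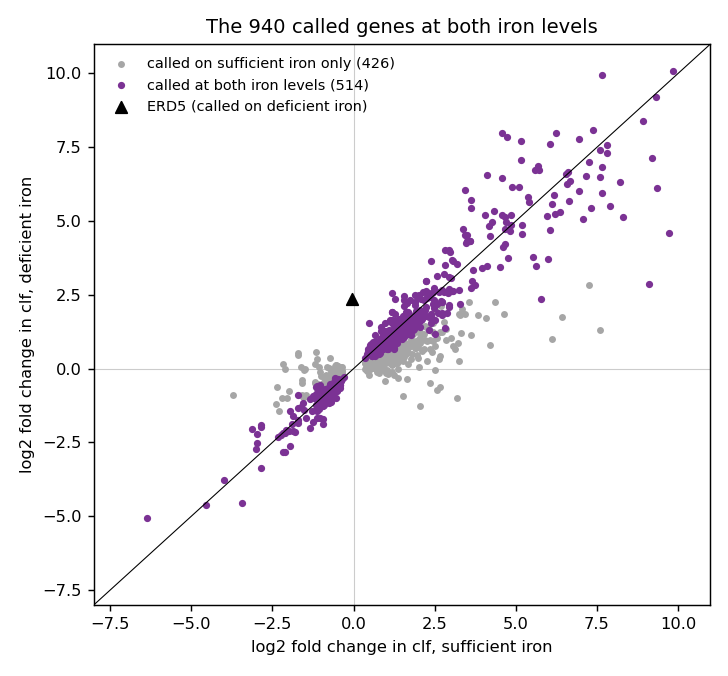
Log2 fold change in clf against wild type on sufficient (x axis) and deficient iron (y axis) for the 940 genes called on sufficient iron, with ERD5 added as a triangle. Purple points were called in the same direction at both levels and grey points on sufficient iron only, and the line marks equal change. The purple points lie along the line from about -6 to 10, and ERD5 lies at 0 on the x axis and above 2 on the y axis.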

How the data were processed

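The authors deposited raw counts per gene for every library. Beside them stand FPKM values, deposited by the authors, which scale those counts by gene length and library total: the ratio held within a relative 1e-06 in 12911 of the 12911 genes above 50 counts throughout. TopHat2 and TAIR10 are named in the submitters' processing notes, without versions. No source used here names the counting tool, annotation or strand setting. The library kit was a stranded mRNA kit per the labels' protocols. A single unnamed column was not used. Of 32678 identifiers, 31912 were matched to the TAIR10.1 gene table for names and coordinates, and 766 were not.

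All 12 libraries in 4 groups of 3 were fitted with edgeR 4.0.16 in R 4.3.3 (TMM, filterByExpr with a minimum count of 10 and total of 15, glmQLFit and glmQLFTest, 8 residual degrees of freedom, biological coefficient of variation 0.308). Calls need a Benjamini-Hochberg adjusted p under 0.05 over 19148 genes. The test returns no SE, so each SE given is the size of the log2 fold change divided by the square root of the test's F. It is an approximation. CPM use TMM library sizes, with mean ± SD over 3 libraries. A group at 0 counts was set to a floor of 3 counts, and a ratio with 1 to 3 counts has an exact 95% interval. Sequences come from the RefSeq genome. limma 3.58.1 on log2(FPKM + 1), DESeq2 1.42.0, other scalings and filters, left-out libraries and a replicate block were alternatives. The fit was tested on simulated data, drawn independently for each library. These held no shift of the replicates 3 and no link between same-numbered libraries, so the simulation does not bear on either.

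Chi-square per gene between replicates was 5.46 to 90.0, so no 2 libraries were copies. Same-numbered libraries of the genotypes deviated together (correlation 0.493, 0.353 and 0.678 for numbers 1 to 3). By the rule used (every pair over 0.1) blocked values are given where they change a call. Differently numbered pairs gave 0.447 and 0.372 for numbers 1 and 2, and values below 0 with number 3. The correlations thus set replicate 3 apart but do not pair numbers 1 and 2. The calls reported come from the fit without the block.

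The members and the 26 lists (428 entries) were chosen with earlier results of these data known. Named were CLF and SWN, the 12 largest changes each way among called genes of at least 5 CPM without overlap, the 5 genes of smallest p for the difference between iron levels, any member of the Polycomb, floral MADS, flowering, HD-ZIP, SWEET, KNOX and iron lists, up to 4 called members of the others, and TOC1 and LHY. Any gene outside the rule is marked as picked once its values were known.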

Additional observations from a re-analysis of the deposited data

Results flagged for a closer look

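The clf effect on ERD5, the proline dehydrogenase gene, differed between the iron levels by the interaction term of the edgeR fit. It was 2.387 higher on the log2 scale on deficient than on sufficient iron (edgeR adjusted p 0.0036). On sufficient iron clf and wild type overlapped at 274 to 354 and 278 to 352 CPM, and on deficient iron they averaged 322 and 63.0 CPM. The other 7 tested genes of proline metabolism did not pass this test.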

How the results depend on the processing

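The comparison was refitted under 21 other settings. The 687 genes higher and 253 lower became 427 and 123 with the 6 sufficient-iron libraries alone, 400 and 155 without both replicates 3, 1649 and 1099 when the 4 libraries standing apart had their own term, 1038 and 638 with DESeq2, and 1070 and 152 with limma on the deposited FPKM. The lower genes numbered 136 with library totals alone. With the replicate number as a block there were 490 higher and 152 lower genes. With single libraries left out, higher genes numbered 307 to 723 and lower genes 79 to 293, with the lowest of both without replicate 2 of clf on sufficient iron. The genes higher in clf at both iron levels numbered 849 with the term and 230 to 405 with a library left out, against 384. The genes lower in clf at both iron levels numbered 80 with library totals, 77 with the replicate block, 485 with the term, 265 with DESeq2, 79 with limma and 59 to 141 with a library left out, against 130. The 1 gene whose effect differed between iron levels became 97 with the term, 97 with DESeq2 and 1 to 3 with a library left out. The log2 fold change of CLF stayed between -1.90 and -1.14 and passed each time. Of 65 named genes that passed, 37 kept their call in all 21 settings, and 0 of the 202 named genes changed sign while called. Beyond the calls given beside the results, the block ended that of no other gene named. The causes of these shifts were not tested. Depth limits genes near 1 CPM: the filter needs 0.476 CPM in 3 libraries, so members below it were not tested. Intervals cover counting error only.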

Other observations

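Genes were also grouped by the wording of the annotated gene product, chosen after values were seen. Of 18 tested genes with MADS-box in that wording 10 rose (55.6%) and 2 fell, SVP and MAF5. Among all tested genes 3.59% rose and 1.32% fell. These MADS-box genes that rose or fell are all reported above. FUL, AGL17, SOC1, AGL24 and AGL42, which rose too, lack the wording, so the 18 are not the whole family. Of 62 tested homeobox genes 10 rose (16.1%) and 5 fell. Besides the genes above, those that rose included the KNOX class II genes KNAT3 and KNAT4, the BEL1-like gene RPL and GL2 of the epidermis, and those that fell included ATML1 of the epidermis and WOX1. In the TCP family, which controls growth of leaves and buds, TCP1 and BRC1, a gene that keeps axillary buds dormant, rose among 11 tested. Of 63 tested lipid transfer protein genes 6 rose and 2 fell.

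Some called genes lay side by side: 77 genes that rose lay in 38 runs of neighbouring tested genes, and 13 that fell in 6 runs. Whether that is more than so many called genes would bring was not tested. The longest runs held 3 genes, the cytochrome P450 genes CYP71A24, CYP71A22 and CYP71A21 on chromosome 3 and, falling, PAP3, AT1G14710 and XTH28 on chromosome 1. LTP4 lay beside LTP3 (log2 fold change 4.2), VSP1 beside VSP2, and PBS3 beside Rap2.6L (2.23), a transcription factor gene. Neighbouring copies can share reads. The share of tested genes called higher lay between 3.26% and 4.08% on the 5 chromosomes.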
